A study of Mus musculus with 24 samples.

Results

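Homologous recombination, the Fanconi anaemia pathway and the DNA damage checkpoint were followed through 34 named genes, of which 33 were measured among 19938 genes in all. The genes were chosen by name and function from a list of symbols, with earlier results of these data known. Their counts beside those of all genes or of other lists are therefore descriptive. They were matched to the array through its annotation, and Xrcc2 is not analysed here. The samples were NIH3T3 cells, an established line of mouse fibroblasts. Every group had been kept for 96 h in 1 mM DFMO, an inhibitor of ornithine decarboxylase that depletes cells of polyamines and, per the series' description, stops their growth. The 0 min group was collected in that state. The other groups then received 10 µM spermidine, a polyamine, together with 1 mM aminoguanidine, which keeps serum enzymes from oxidising it, and were collected after 30, 60, 120, 240, 360, 480 or 600 min. The 8 times had 3 biological replicates each, giving 24 Affymetrix MoGene 1.0 ST arrays. The labels name no cells kept in DFMO alone for the same times, and leave unsaid if aminoguanidine was given at 0 min. Spermidine, aminoguanidine and time in culture therefore cannot be told apart.

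These genes belong to linked systems. Homologous recombination repairs broken chromosomes and forks by copying the sister chromatid: BRCA1 with its partner BARD1 prepares the ends and recruits PALB2 and BRCA2, which carry the repair forward. The Fanconi core complex attaches ubiquitin to FANCD2 and FANCI at cross-linked DNA, and the kinases ATR and ATM, acting through CHEK1 and CHEK2, hold the cell cycle while repair proceeds. Many of these genes are transcribed at the entry into S phase, under E2F transcription factors, so their RNA is known to be low in resting cells and high in dividing ones. Arrays measure RNA and not the proteins, their modification or repair itself. In bulk RNA of this kind, more cells of one cycle phase and more RNA per cell cannot be told apart.

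Values are on the log2 scale, where a difference of 1 is a 2-fold change in signal, and array medians over all probe sets lay between 4.40 and 4.45. A gene was called where limma's moderated test gave a Benjamini-Hochberg adjusted p under 0.05 over all genes. The 9 fibroblast markers were all above the median gene, with means between 9.52 and 10.0 per array. Of the markers of other cell types, 1 of 6 for macrophages, 1 of 6 for epithelium, 0 of 4 for endothelium, 2 of 5 for muscle and 0 of 5 for adipocytes were above it. On the first principal component of all genes, 1 array at 120 min and 1 at 240 min lay away from the others of their time. Replicate 3 at 120 min lay at 2.61, against -12.2 for both other arrays of that time, and 25 of the 33 repair genes were higher on it than on both, as were 32.5% of all genes. Replicate 3 at 240 min lay at -13.2, against 2.07 and 1.49, and 24 of the 33 were lower on it than on both, as were 36.5% of all genes. Each of these arrays thus lay near the others of the opposite time. Whether their labels had been exchanged was not tested, and the 120 and 240 min values carry that doubt. Both were kept under their labels, and results at 120 and 240 min are given with and without them.

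Little moved before 240 min, and most of the genes had risen by 360 min. At 30, 60 and 120 min, limma called 0 of the 33 genes in either direction, with 2, 0 and 6 genes at an unadjusted p under 0.05. Over all genes, 0.015%, 0.01% and 0.0451% were called higher at those times and 0%, 0.015% and 0.426% lower. The median change of the 33 genes was 0.02, 0.00 and 0.08, and the last of these was 0.00 without the arrays that stood apart. At 360 min 19 genes rose and 1 fell, against 8.47% of all genes called higher and 10.5% lower. The median change was 0.26 for the 33 genes and 0.00 for all genes. At 480 min 19 rose and 1 fell (9.73% and 14.5% of all genes), with a median change of 0.40. At 600 min 23 rose and 1 fell (11.2% and 15.7% of all genes), with a median change of 0.48. Mus81 was the gene that fell at all 3 times. These comparisons share the 0 min arrays, so they are not independent of each other.

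The number of genes whose arrays did not overlap with those at 0 min followed the same order. At 360 min all 3 arrays were above all 3 at 0 min for 20 of the 33 genes and below them for 1, where 15.7% and 17.3% of all genes were so placed. At 600 min they were above for 26 genes, against 17.5% of all genes, and below for 1, against 19.9%. A joint F-test of the 7 later times called 25 of the 33 genes, against 30.9% of all genes. The 8 it did not call were Brca2, Bard1, Rad50, Fance, Fancf, Fancl, Atr and Atrip. Low signal limits some of these results. Of the 33 genes, 26 reached 5 on the log2 scale on at least 3 arrays. Brca2, Palb2, Rad51ap1, Rad54b, Xrcc3, Fancg and Fanci did not. Eme1, Blm and Brca1 reached it mainly on late arrays, and their 0 min means were 4.50, 4.57 and 4.72.

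**Figure D1:**
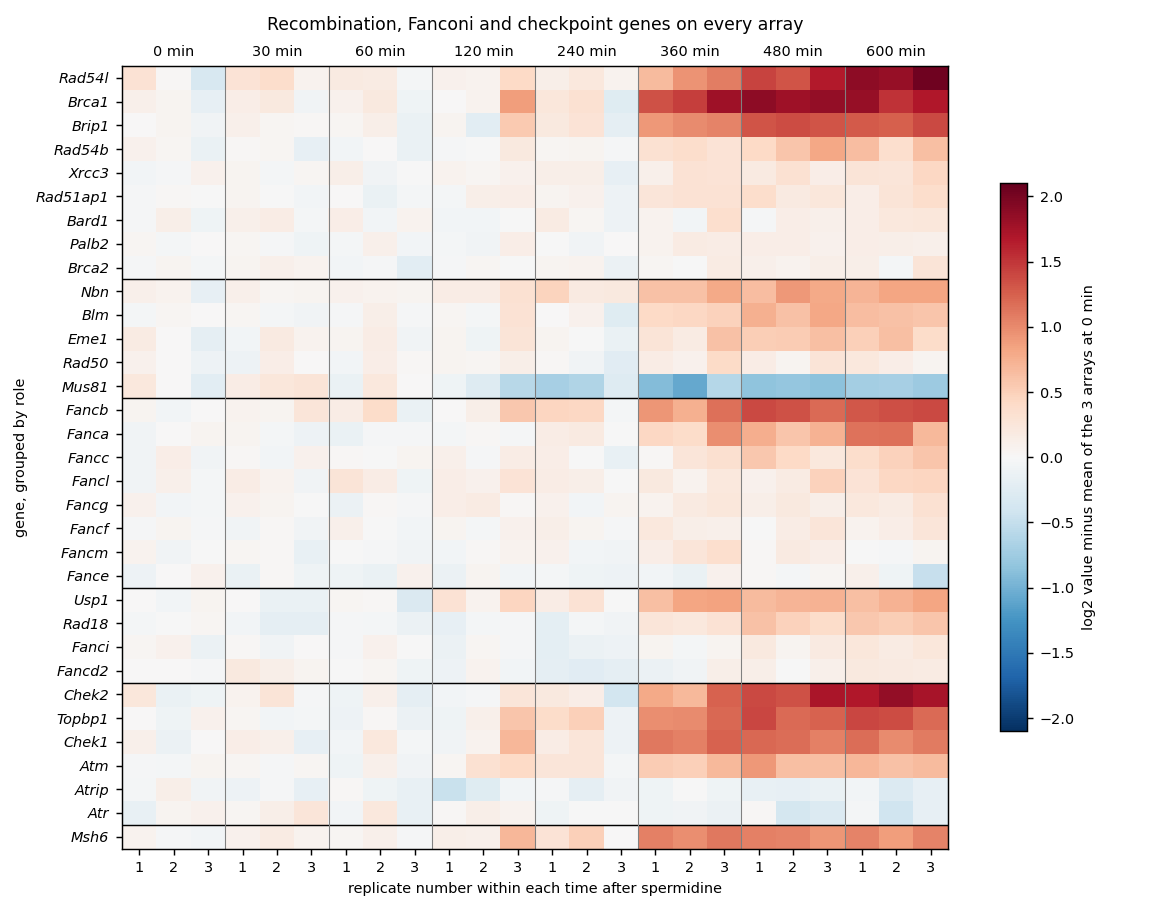
Log2 value on each of the 24 arrays minus the gene's mean at 0 min, with the 33 genes in rows by role and the arrays in columns by time. The red block opens at 360 min, where 19 genes had risen, and Mus81 is the blue row. Replicate 3 at 120 min and replicate 3 at 240 min differ from their neighbours.

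The 240 min calls depended on the arrays that stood apart. With all arrays limma called 0 genes higher and 1 lower, Mus81, against 0.366% and 2.69% of all genes, and 5 of the 33 had an unadjusted p under 0.05. Without the arrays that stood apart 4 rose and 1 fell, against 2.47% and 5.87% of all genes. Msh6, which recognises mismatched bases, was at 7.90, 8.12 and 7.63 at 240 min and 7.71, 7.61 and 7.56 at 0 min. The change was 0.39 ± 0.07 without both arrays that stood apart (adjusted p = 0.00106) and 0.26 ± 0.12 with them, which was not called. Topbp1, the activator of ATR, changed by 0.44 ± 0.09 without both (adjusted p = 0.00232), Fancb by 0.44 ± 0.12 (adjusted p = 0.0235) and Nbn by 0.33 ± 0.09 (adjusted p = 0.0285, or 0.0595 and not called with the replicate block). With all arrays these 3 changes were 0.26, 0.28 and 0.29, and were not called. Leaving out replicate 3 at 240 min alone gave the same changes with larger errors, and called Topbp1 (adjusted p = 0.0487) and Nbn (0.0397) but not Msh6 (0.0664) or Fancb (0.0806). From 240 to 360 min 18 genes rose and 0 fell, against 4.25% and 1.8% of all genes. Without the arrays that stood apart 12 rose and 0 fell, against 2.28% and 0.742% of all genes.

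Sites for E2F factors near the transcription start are a textbook feature of genes used in S phase, so the promoters were read for them. RefSeq promoter windows of the GRCm38.p6 build, from 250 bases before to 50 after the start, were found for 28 of the 33 genes. The letters TTCCCGC or TTCGCGC or TTGCCGC or TTGGCGC, forms of the E2F site read on both strands, were in 16 of the 28 windows (57.1%). They were in 9.6% of all 32851 windows, and in 14.7% of the 15614 genes that were on the array and had a window. Of the 16 genes with a window that had risen at 360 min, 11 held the letters, and of the 12 others 5 did. The letters CCAAT, on either strand, were in 60.7% of the 28 windows and 37.4% of all windows. They were in 41.7% of those 15614 array genes. The CHR letters TTTGAA or TTCGAA, known from genes of later cycle phases, were in 10.7%, 19.2% and 19.0%. Such matches are letters in a window and not bound sites, and the genes had been chosen for functions that are used in S phase. These 11 genes held 13 matches, with 2 each in Topbp1 and Fancm. The match nearest the start of each gene is printed below, to show which letters were found and what surrounds them. Each stretch is read 5′ to 3′ on the strand that holds the TT of that match. Capitals mark E2F letters on either strand, and the 2 matches of Topbp1 overlap.
Brca1, chr11:101551918-101551944: aaccggccgcTTGGCGCctagcgctag
Chek1, chr9:36726609-36726625: TTCCCGCcaaaacctgc
Topbp1, chr9:103305188-103305214: ggaaccgactTTCGCGCCAAccgagcg
Msh6, chr17:87975056-87975082: cctcccgactTTCCCGCcagcggcggc
Brip1, chr11:86201181-86201207: cacagatgaaTTCGCGCctcccgcccc
Fancb, chrX:164980410-164980436: agagcacttaTTCCCGCctctaccccg
Chek2, chr5:110839821-110839847: acgtcttggtTTCCCGCggctaatccc
Atm, chr9:53536640-53536666: tacgcacgccTTCCCGCttccggctct
Blm, chr7:80535124-80535150: atcatccttcTTGCCGCgcagagcgtg
Rad51ap1, chr6:126939559-126939585: gcggtttcaaTTCCCGCcgaaaaccag
Fancm, chr12:65075539-65075565: accaatcatcTTCCCGCcgcaaaatcg

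The 2 longer stretches are of Chek2, which rose, and Mus81, which fell. Each is the 200 bases before the transcription start of its promoter window, on the gene's own strand. That start can lie inside the listed gene: most of the Chek2 stretch lies past 110839800, where the listed gene begins. The 2 genes do not stand for the rest. Rad54l, Fanca, Rad18, Eme1 and Xrcc3 rose at 360 min without E2F letters in their windows. Brca2, Bard1, Fancf, Fancg and Fanci held them and were not called at 360 min. Capitals mark E2F letters and CCAAT boxes on either strand.
Chek2, chr5:110839783-110839982: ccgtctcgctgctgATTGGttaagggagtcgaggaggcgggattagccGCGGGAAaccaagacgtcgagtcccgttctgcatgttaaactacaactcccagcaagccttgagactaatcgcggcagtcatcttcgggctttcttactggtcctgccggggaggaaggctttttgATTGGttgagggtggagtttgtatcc
Mus81, chr19:5488380-5488579: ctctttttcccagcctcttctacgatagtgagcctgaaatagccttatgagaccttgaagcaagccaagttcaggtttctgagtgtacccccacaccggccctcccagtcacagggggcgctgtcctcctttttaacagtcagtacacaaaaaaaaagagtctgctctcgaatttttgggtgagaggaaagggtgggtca
The Chek2 stretch held 1 E2F match and 2 CCAAT matches, and the Mus81 stretch held 0 of either.

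The BRCA group and its recombination partners ranged from strong rises, through small ones, to changes that were not called against 0 min. Of 9 measured, 6 had risen at 360 min and 6 at 600 min, against 8.47% and 11.2% of all genes. Brca1, the ubiquitin ligase that starts repair by recombination, was at 4.83, 4.78 and 4.55 at 0 min. It was at 6.06, 6.17 and 6.51 at 360 min, at 6.60, 6.50 and 6.57 at 480 min and at 6.55, 6.25 and 6.41 at 600 min. All 9 late arrays lay above every array at 0 min. The change at 360 min was 1.52 ± 0.18 (SE, adjusted p = 1.27e-05), a 2.87-fold rise and the largest of the 33 genes at that time. Rad54l, a motor protein of homologous recombination, was at 5.44, 5.16 and 4.80 at 0 min and 5.80, 6.08 and 6.20 at 360 min. It was at 6.55, 6.45 and 6.79 at 480 min and 7.02, 6.97 and 7.17 at 600 min. Its arrays did not overlap between 360, 480 and 600 min. It rose by 0.90 ± 0.14 at 360 min and by 1.92 ± 0.14 at 600 min (adjusted p = 4.47e-09), a 3.78-fold rise and the largest of the 33 at that time.

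Brip1, the helicase that binds BRCA1 and is also known as FANCJ, was at 5.14, 5.19 and 5.06 at 0 min and 6.04, 6.12 and 6.17 at 360 min. The groups did not overlap, and the change was 0.98 ± 0.13 (adjusted p = 3.33e-05). Rad54b, a relative of Rad54l, rose by 0.33 ± 0.09 and Rad51ap1, a recombination factor, by 0.29 ± 0.06. Xrcc3, also of this pathway, rose by 0.23 ± 0.08 (adjusted p = 0.0387), which was not called with the replicate number as a block (adjusted p = 0.0617). These 3 genes had low signal, and the Rad54b and Xrcc3 calls at 360 min were lost without single arrays. For Rad54b these were replicate 3 at 0 min (adjusted p = 0.0969) and replicate 2 at 360 min (0.06). For Xrcc3 they were replicates 1 and 2 at 0 min and replicates 2 and 3 at 360 min, with adjusted p between 0.116 and 0.152. At 600 min all 3 rose, by 0.54, 0.26 and 0.31.

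Brca2, a mediator of recombination, was at 4.37, 4.46 and 4.36 at 0 min and 4.52, 4.35 and 4.68 at 600 min. The groups overlapped, and the interval of the change at 600 min ran from -0.03 to 0.26. Bard1, the obligate partner of BRCA1, changed by 0.20 at 600 min with an interval from 0.02 to 0.39 (adjusted p = 0.103). The other 2 probe sets of Bard1 differed by 0.19 and 0.48 between 600 and 0 min, and by 0.31 and 0.32 between 360 and 0 min. Palb2, which joins BRCA1 to BRCA2, changed by 0.12 (interval 0.01 to 0.23, adjusted p = 0.102). All 3 missed the threshold at 360 min too, with changes of 0.07, 0.13 and 0.13.

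Among helicases and nucleases, the 2 subunits of one enzyme moved in opposite directions. Of 5 genes, 3 had risen and 1 had fallen at both 360 and 600 min. Of all genes, 8.47% rose and 10.5% fell at 360 min, and 11.2% and 15.7% at 600 min. Mus81, the catalytic subunit of a nuclease that cuts branched DNA, was at 6.43, 6.22 and 6.00 at 0 min and 5.52, 5.59 and 5.94 at 240 min. It was at 5.30, 5.15 and 5.62 at 360 min, with 5.50, 5.52 and 5.45 at 600 min. All arrays from 240 min on lay below all arrays at 0 min. The fall was -0.86 ± 0.13 at 360 min (adjusted p = 1.33e-04) and -0.73 ± 0.13 at 600 min (adjusted p = 2.89e-04). At 240 min it was -0.53 ± 0.13 (adjusted p = 0.0334), which was not called with the replicate block (0.0653). It was also not called without replicate 1 or 2 of either time, with adjusted p between 0.0947 and 0.178. Without the arrays that stood apart it was -0.66 ± 0.12 (adjusted p = 0.00149).

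Eme1, the subunit that pairs with MUS81, was at 4.67, 4.51 and 4.32 at 0 min, 4.77, 4.67 and 5.12 at 360 min, with 5.01, 5.13 and 4.89 at 600 min. At 360 min replicate 2 lay level with the highest 0 min array, and at 600 min the groups did not overlap. It rose by 0.35 ± 0.11 at 360 min (adjusted p = 0.0307) and by 0.51 ± 0.11 at 600 min (adjusted p = 0.00156). The earlier call was lost without replicate 2 (0.0699) or 3 (0.169) at 0 min or replicate 3 at 360 min (0.211). Nbn, the NBS1 subunit of the complex that senses broken ends, rose from 6.54, 6.49 and 6.24 to 7.03, 7.04 and 7.23 at 360 min. The groups did not overlap, with a change of 0.68 ± 0.08 (adjusted p = 1.6e-05). A second probe set of Nbn had means between 3.71 and 3.82 at every time, below the array medians, and says little of a change. Rad50, of the same complex, changed by 0.22 (interval 0.04 to 0.40, adjusted p = 0.0837) and was not called. Blm, the helicase mutated in Bloom syndrome, rose by 0.45 ± 0.08 at 360 min and 0.61 ± 0.08 at 600 min.

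**Figure D2:**
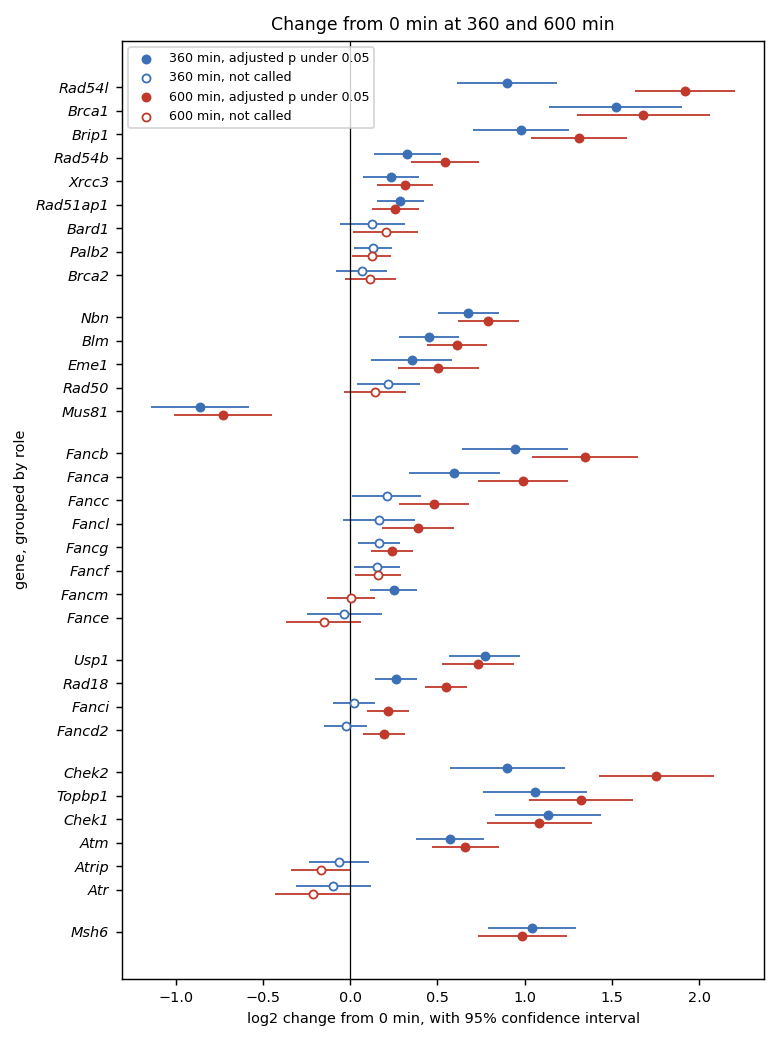
Change from 0 min at 360 min (blue) and 600 min (red) for the 33 genes in 6 groups by role, on the log2 scale with the 95% confidence interval of limma's fit. Filled points were called. Brca1, Rad54l, Chek2 and Fancb lie far to the right, and Mus81 alone lies wholly to the left of 0.

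Within the Fanconi core complex 3 of 8 genes had risen at 360 min and 5 of 8 at 600 min, and 0 had fallen. Of all genes, 8.47% and 11.2% were called higher at those times, and 10.5% and 15.7% lower. Fancb, the X-linked subunit that supports the ligase, was at 5.33, 5.22 and 5.27 at 0 min, 6.20, 6.02 and 6.43 at 360 min, with 6.58, 6.62 and 6.65 at 600 min. The late arrays did not overlap with those at 0 min, and the change was 0.94 ± 0.15 at 360 min (adjusted p = 1.22e-04) and 1.34 ± 0.15 at 600 min. Fanca, a scaffold of the complex, was at 4.91, 4.98 and 5.04 at 0 min, 5.40, 5.36 and 5.95 at 360 min, with 6.11, 6.12 and 5.66 at 600 min. All late arrays were above those at 0 min, with replicate 3 far from the other two at both times. Fanca rose by 0.60 ± 0.12 at 360 min (adjusted p = 0.00161) and 0.99 ± 0.12 at 600 min.

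The remaining subunits moved less. Fancl, the catalytic ubiquitin ligase, was at 7.07, 7.25 and 7.10 at 0 min and 7.43, 7.57 and 7.59 at 600 min. These did not overlap, and the change of 0.39 ± 0.10 was called (adjusted p = 0.00511), while that of 0.16 at 360 min was not. Fancc rose by 0.48 ± 0.09 and Fancg by 0.24 ± 0.06 at 600 min, and neither was called at 360 min. Fancf changed by 0.15 and 0.16 at 360 and 600 min (adjusted p = 0.0999 and 0.0684), and Fance by -0.03 and -0.15, with no call for either. Fancm, the translocase that anchors the complex on DNA, had another course. It was at 5.91, 5.75 and 5.83 at 0 min, 5.98, 6.08 and 6.18 at 360 min, with 5.83, 5.80 and 5.88 at 600 min. It rose by 0.25 ± 0.07 at 360 min (adjusted p = 0.00948), and at 600 min the difference was 0.01 (interval -0.13 to 0.14). The earlier call was lost without replicate 2 at 0 min (adjusted p = 0.0582) or replicate 3 at 360 min (0.0648).

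All 4 genes of the FANCD2-FANCI step had risen at 600 min, and 2 of the 4 at 360 min. Of all genes, 11.2% and 8.47% had. Usp1, the enzyme that removes ubiquitin from FANCD2, was at 7.44, 7.37 and 7.49 at 0 min and 8.07, 8.27 and 8.28 at 360 min. The groups did not overlap, with a rise of 0.77 ± 0.10 (adjusted p = 1.9e-05). Rad18, a ubiquitin ligase at stalled forks, was at 7.65, 7.69 and 7.74 at 0 min, 7.94, 7.92 and 8.00 at 360 min, with 8.25, 8.20 and 8.27 at 600 min. No arrays overlapped between these 3 times, and the rise was 0.26 ± 0.06 and then 0.55 ± 0.06. Fancd2 itself was at 4.99, 5.00 and 4.96 at 0 min, 4.80, 4.75 and 4.79 at 240 min, with 5.19, 5.18 and 5.17 at 600 min. The 240 min arrays were the lowest and the 600 min arrays the highest of these 3 times. The change was -0.21 ± 0.06 at 240 min, which was not called, and 0.19 ± 0.06 at 600 min (adjusted p = 0.0163). Fanci rose by 0.22 ± 0.06 at 600 min (adjusted p = 0.00616). Without replicate 3 at 0 min, neither Fancd2 (adjusted p = 0.0562) nor Fanci (0.0559) was called.

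Among checkpoint genes, Atr and its partner Atrip were not called at any time against 0 min. Of 6 genes, 4 rose at both 360 and 600 min: the effector kinases Chek1 and Chek2, the ATR activator Topbp1 and the kinase Atm. The shares of all genes called higher were 8.47% and 11.2%. Chek1, the effector of ATR, was at 6.89, 6.65 and 6.79 at 0 min, 7.89, 7.83 and 8.02 at 360 min, with 7.94, 7.77 and 7.87 at 600 min. The groups at 360 and 600 min overlapped each other and lay above 0 min. The rise was 1.13 ± 0.14 at 360 min (adjusted p = 2e-05) and 1.08 ± 0.14 at 600 min. Chek2, the effector of ATM, was at 5.72, 5.34 and 5.38 at 0 min, 6.27, 6.16 and 6.71 at 360 min, with 7.16, 7.33 and 7.21 at 600 min. No arrays overlapped between these 3 times, with a rise of 0.90 ± 0.16 and then 1.75 ± 0.16 (adjusted p = 7.1e-08).

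Topbp1 was at 7.71, 7.61 and 7.79 at 0 min, 8.68, 8.70 and 8.90 at 360 min, with 9.11, 9.07 and 8.89 at 600 min. It lay above 0 min on every late array, by 1.06 ± 0.14 at 360 min and 1.32 ± 0.14 at 600 min. Atm, the kinase that answers to broken ends, was at 6.90, 6.87 and 6.98 at 0 min and 7.45, 7.42 and 7.60 at 360 min, without overlap. It rose by 0.57 ± 0.09 (adjusted p = 1.85e-04). Atr, the kinase that answers to single-stranded DNA at forks, was at 7.24, 7.45 and 7.48 at 0 min and 7.35, 6.96 and 7.21 at 600 min. The groups overlapped, and the difference was -0.21 (interval -0.43 to 0.00, adjusted p = 0.152). Atrip, the protein through which ATR binds, differed by -0.17 (interval -0.34 to 0.00, adjusted p = 0.152). Msh6, the mismatch recognition gene, was at 8.68, 8.60 and 8.73 at 360 min, above its 3 arrays at 0 min. The rise was 1.04 ± 0.12 at 360 min and 0.99 ± 0.12 at 600 min.

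The genes also differed in whether they went on rising after 360 min. Between 360 and 480 min limma called 0 of the 33 genes, with 8 at an unadjusted p under 0.05, against 0.291% of all genes higher and 0.321% lower. Without the arrays that stood apart 4 were called higher, Chek2, Rad54l, Brip1 and Blm, and 0 lower, against 0.552% and 0.637% of all genes. Neither of those arrays is of 360 or 480 min. The changes of the 4 were therefore the same, and only the estimate of spread shared over all times fell. For Brip1 the change was 0.36 in both fits, with an SE of 0.13 with all arrays and 0.07 without the 2. With those arrays left out and the replicate block added, Brip1 (adjusted p = 0.027) and Blm (0.0306) were called and Chek2 (0.0693) and Rad54l (0.0802) were not. Between 480 and 600 min 0 were called, with 3 at an unadjusted p under 0.05, against 0.15% and 0.0301%. Over the whole span from 360 to 600 min 5 rose and 1 fell, against 2.54% and 3.43% of all genes. Rad54l rose by 1.02 ± 0.14 (adjusted p = 1.07e-04), Chek2 by 0.85 ± 0.16 (adjusted p = 0.00233) and Rad18 by 0.29 ± 0.06 (adjusted p = 0.00474). These 3 were called without any 1 array and with the replicate block.

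The other 3 calls of that span were not kept. Fancd2 rose by 0.22 ± 0.06 (adjusted p = 0.0289, with the block 0.0561), Fanci by 0.195 ± 0.06 (adjusted p = 0.0473, with the block 0.0855), and Fancm fell, at -0.24 ± 0.07 (adjusted p = 0.0304, with the block 0.0575). With the block 3 rose and 0 fell, against 1.82% and 2.32% of all genes. Each of these 3 was also lost without single arrays of 360 or 600 min. Without the arrays that stood apart 8 rose and 1 fell, against 3.37% and 4.67% of all genes, and Fancb (adjusted p = 0.0232), Brip1 (0.00434) and Topbp1 (0.0397) joined the genes that rose. The left-out arrays are of other times, so the changes of Fancb, Brip1 and Topbp1 were the same as with all arrays, with smaller errors.

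The share of the 600 min change already present at 360 min described the same order. It was 104.5% for Chek1, 105.7% for Msh6, 105.4% for Usp1 and 90.6% for Brca1. It was 51.4% for Chek2, 47.8% for Rad18 and 46.8% for Rad54l. Between them lay Topbp1 at 80.1%, Brip1 at 74.5%, Fancb at 70.2% and Fanca at 60.3%. The highest of the 8 time means was at 600 min for 16 genes, at 480 min for 8 and at 360 min for 6. It was at 30 min for 2 and at 0 min for 1.

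**Figure D3:**
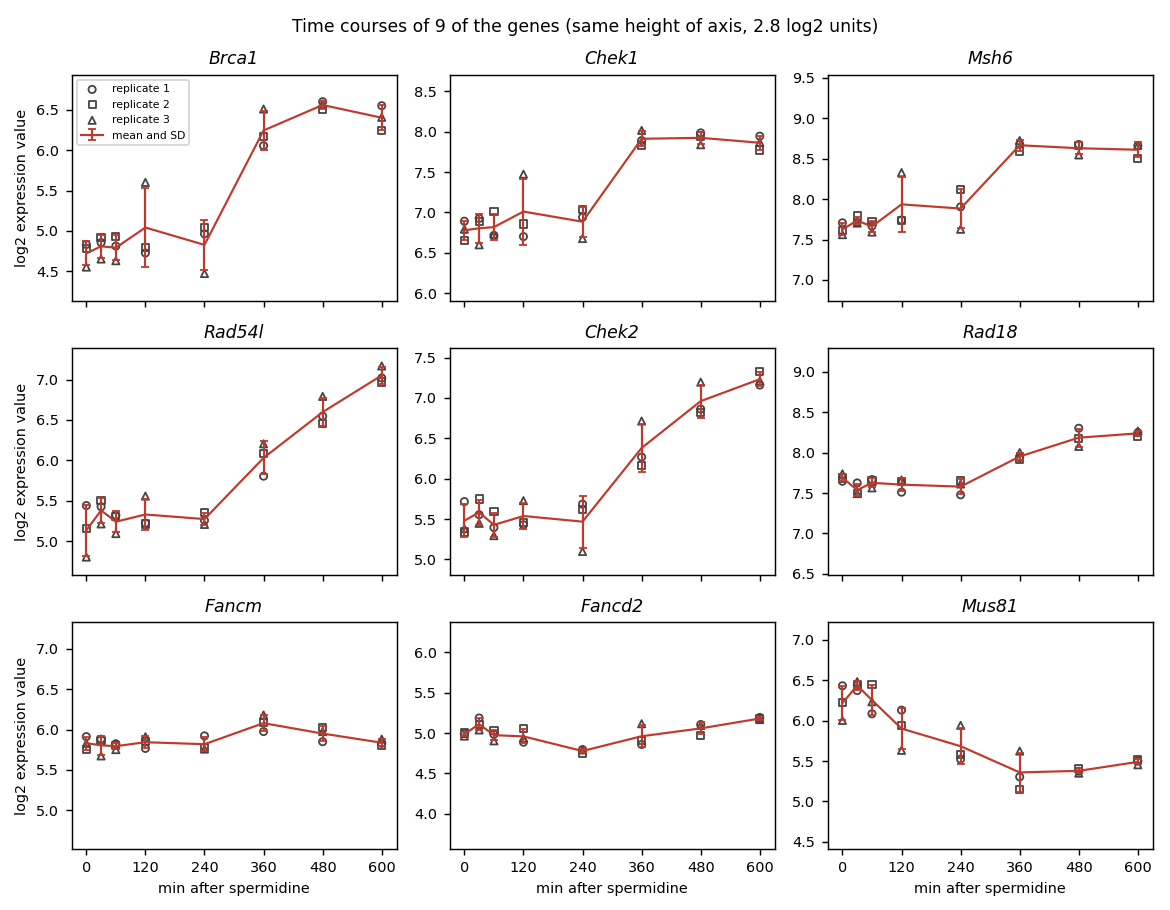
Time courses of 9 of the genes, with log2 value on the vertical axis, minutes after spermidine on the horizontal axis, points for single arrays and lines with bars for the mean and SD of 3. Chek1 and Brca1 are well above 0 min from 360 min on, Rad54l and Chek2 are higher at 600 than at 360 min, and Mus81 is lower at 360 min and after.

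Whether partners changed by unequal amounts was tested on the difference of their log2 values within each array, for 8 pairs of related genes. The 9 arrays of 360, 480 and 600 min were set against the 3 at 0 min with an exact two-sided permutation test, whose smallest possible p was 0.0091. Of the 8 pairs, 5 reached it, with an adjusted p of 0.0145 over the 8. That p is reached only where the late arrays do not overlap with those at 0 min. How many pairs of other genes would reach it was not counted, so the 5 show nothing particular to partners. The 5 calls ended when permuting within replicate numbers (adjusted p = 0.05, the smallest it can give) or without any 1 array at 0 min (0.0582, likewise the smallest). Brca1 minus Brca2 was 0.32 ± 0.13 (SD, n = 3) at 0 min and 1.91 ± 0.16 (SD, n = 9) late, a gain of 1.59. Brca1 minus Bard1 went from -0.38 ± 0.12 to 1.17 ± 0.22, a gain of 1.55. Eme1 minus Mus81 went from -1.72 ± 0.04 to -0.43 ± 0.11, a gain of 1.28. Rad54l minus Rad54b gained 0.94, from 0.76 ± 0.20 to 1.70 ± 0.38. By time it gained 0.57, 0.86 and 1.38 at 360, 480 and 600 min. The late SDs pool these times, so they include change between times as well as replicate spread. Atr minus Atm changed by -0.83, from 0.47 ± 0.12 to -0.36 ± 0.16. These values compare changes in signal, and not which gene of a pair has more RNA. Brca2, Rad54b and Eme1 lay near the array median at 0 min, where a change can be hidden by low signal.

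The other 3 pairs were not called. Chek1 minus Chek2 was 1.30 ± 0.12 at 0 min and 1.04 ± 0.44 late, a difference of -0.26 (exact permutation p = 0.364, adjusted 0.416). Its difference from 0 min was 0.23 at 360 min, where the arrays overlapped. It was -0.34 at 480 min and -0.67 at 600 min, and all 3 arrays of each were below those at 0 min. The test pooled these times of opposite sign, so it cannot speak to the later ones alone. Fancd2 minus Fanci differed by -0.05, from 0.34 ± 0.09 to 0.29 ± 0.07 (exact permutation, adjusted p = 0.416). Atr minus Atrip differed by -0.04, from 1.67 ± 0.14 to 1.63 ± 0.11 (exact permutation, adjusted p = 0.573). For Fancd2 minus Fanci and Atr minus Atrip, the test had only 3 arrays at 0 min and leaves room for unequal changes of this size.

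**Figure D4:**
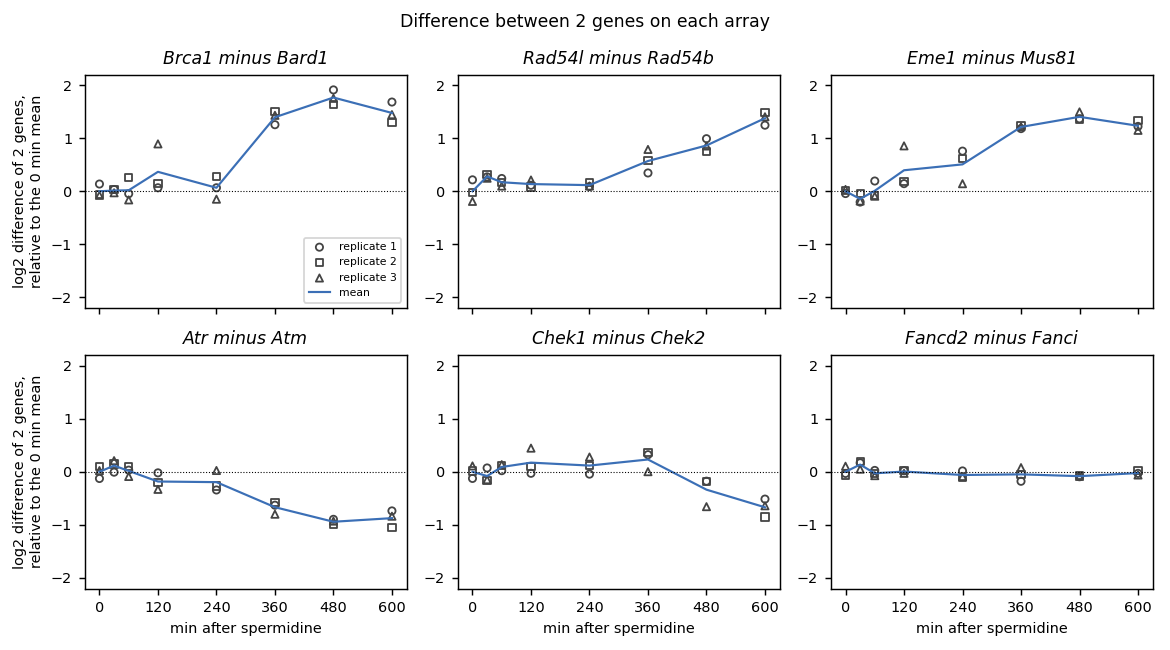
Log2 difference between the 2 genes of 6 of the 8 pairs on each array, relative to the mean at 0 min, by minutes after spermidine, with lines for the mean of 3 arrays. Late points lie apart from those at 0 min for Brca1 minus Bard1, Rad54l minus Rad54b, Eme1 minus Mus81 and Atr minus Atm, and overlap with them for Fancd2 minus Fanci.

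Other genes of DNA repair gave the setting for these changes. Of 109 further repair genes measured, 34 rose and 16 fell at 360 min, with a median change of 0.01, against 8.47% of all genes higher and 10.5% lower. At 600 min 40 rose and 28 fell, with a median of 0.02, against 11.2% and 15.7%. For the small lists below, the matching shares at 360 min were 8.47% of all genes higher and 10.5% lower. Further recombination and Fanconi genes counted 13 rises and 3 falls among 38 at 360 min, and further checkpoint genes 13 and 3 among 22. Mismatch repair genes counted 2 rises and 0 falls among 4, and base excision genes 3 and 0 among 12. Nucleotide excision genes had 0 rises and 4 falls among 13, end joining genes 1 and 3 among 9, and genes of translesion synthesis 2 and 3 among 11. The largest rises were of Exo1, the exonuclease that resects ends, by 1.67 ± 0.19, the chromatin remodeller Hells by 1.56 ± 0.20, the CHEK1 adaptor Clspn by 1.52 ± 0.17 and Fignl1, an ATPase of recombination, by 1.33 ± 0.16. The largest falls were of the bypass polymerase Polk, at -1.32 ± 0.19, the nuclease Ercc5, at -0.78 ± 0.10, the BRCA1-complex scaffold Abraxas1, at -0.57 ± 0.15, and the primase Primpol, at -0.51 ± 0.09.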

How the data were processed

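RNA of 24 NIH3T3 cultures was measured on 1-colour Affymetrix arrays. Per the submitters' processing notes, the authors handled the scans in Partek with RMA. Versions were not given in the sources used here. Values as deposited by the authors were taken as log2 signal, a scale inferred from the values and from RMA, and were used as they stand. In them, each gene's mean over the 8 times is the same for replicate numbers 1, 2 and 3 (median gap 5e-06, largest 8.75e-05), which shows that an effect of replicate number had been removed before deposit. A fit with replicate number as a block was therefore run beside the main one. The labels call the replicates biological, without saying what a number shares. Over 84 pairs of same-numbered arrays from different times, the correlation of their deviations ran from -0.533 to 0.182, with a median of -0.153. The removal of the replicate effect itself makes these correlations negative on average, so they cannot show what a number shares.

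The array has 35399 probe sets: 21789 have a single gene symbol, 1621 have more and 11989 have none. Where more than 1 probe set named a gene (999 genes), that of highest mean was used. The model had 1 mean per time over 24 arrays (limma 3.58.1 in R 4.3.3, with data.table in version 1.17.8), with 16 residual and 3.48 prior degrees of freedom. Its moderated tests were two-sided, adjusted by Benjamini-Hochberg over 19938 genes within each comparison, and called at 0.05 with no minimum change. It was tested on simulated data. Changes are given ± SE. The number of arrays limits the precision. Pairs were tested by exact permutation with Python 3.11.15, pandas 2.3.3 and numpy 2.4.6, and figures drawn with matplotlib 3.10.9. Of 9 pairs set out, Xrcc2 with Xrcc3 was not run. Every measured gene of the list is described. Of the other repair lists, drawn from general knowledge, the 4 largest rises and 4 largest falls at 360 min among called genes are named. The genes and lists were chosen with earlier results of these data known. Alternatives covered the block, scaling, quantile normalization, a filter on low values, the probe set, the variance model, only the arrays compared, and single arrays left out.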

Additional observations from a re-analysis of the deposited data

How the results depend on the processing

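At 360, 480 and 600 min against 0 min, the counts of genes called higher and lower stayed within 1.5 times their value under every alternative run, other than those that left out 1 array, where the lower count went from 1 to 2 without replicate 1 at 480 min and without replicate 1 at 600 min. Leaving out 1 array at a time gave 16 to 21 higher and 1 to 1 lower at 360 min, 19 to 20 and 1 to 2 at 480 min, 21 to 24 and 1 to 2 at 600 min, and 23 to 27 by the F-test.

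At 240 min, against 0 higher, 4 were called without both arrays that stood apart, 3 without them and with the replicate block, 1 with the filter on low values, 1 with quantile normalization and 0 to 2 without single arrays. Against 1 lower, the replicate block, quantile normalization and only the arrays compared gave 0, the filter and median scaling 2, and single arrays 0 to 1. From 240 to 360 min, against 18 higher, 10 were called without both arrays and with the block, 8 with only the arrays compared, and 10 to 17 without single arrays, with 10 without replicate 3 of either time. From 360 to 480 min, against 0, there were 4 without both arrays, 2 with the block added, 1 with the filter, 2 with quantile normalization, 1 with the intensity trend, 1 with only the arrays compared and 0 to 1 without single arrays. From 360 to 600 min, against 5 higher, the replicate block gave 3, leaving out both arrays 8, and single arrays 3 to 5, with 3 without replicate 1 or 2 of either time. Against 1 lower, the block, quantile normalization, the trend and only the arrays compared gave 0, and single arrays 0 to 1. Counts at 30, 60 and 120 min, and from 480 to 600 min, were 0 without any single array. The causes were not tested.

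Permuting within replicate numbers (a replicate block) gave the 5 pairs called above an adjusted p of 0.05, the smallest it can reach and no call, with the same differences of -0.83, 1.59, 1.55, 0.94 and 1.28. Without any 1 array at 0 min the smallest they could reach was 0.0582. Taking 600 min only, Rad54l minus Rad54b differed by 1.38. Without single arrays the differences ran from -0.34 to -0.18 for Chek1 minus Chek2, -0.89 to -0.78 for Atr minus Atm, 1.52 to 1.65 for Brca1 minus Brca2, 1.50 to 1.61 for Brca1 minus Bard1, 0.84 to 1.04 for Rad54l minus Rad54b and 1.26 to 1.30 for Eme1 minus Mus81. Fancd2 minus Fanci ran from -0.0882 to 0.0012 and Atr minus Atrip from -0.0972 to 0.0362, and both turned positive, at 0.0012 and 0.0362, without replicate 3 at 0 min. Signal near the array median limits what can be said of Brca2, Palb2, Rad51ap1, Rad54b, Xrcc3, Fancg and Fanci. The 0 min values of Eme1, Blm and Brca1 were low too.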
